A study of Mus musculus with 15 samples.

Results

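The mature enterocyte genes described here are Alpi, Akp3, S100g, Krt20, Ada, Prap1, Vil1, Clca4b, Tm4sf4 and Serpinb1a, 10 of the 18820 genes measured in duodenal organoid monolayers. They were chosen for their large weights on the first principal component of these same arrays, the axis along which the arrays differ most, and each was read from the 1 probe set that carries its symbol alone. Their differences between arrays are therefore given as a description: no p-value is given for them, and nothing is read from their counts past a threshold or from the intervals of the fit. The monolayers came from duodenal crypts of female C57BL/6J mice aged 9 weeks, grown as organoids and then as a flat confluent cell layer. Each sample pooled 3 wells that had been exposed for 6 h to casein (CAS), soybean meal (SBM), spray dried plasma protein (SDPP) or yellow meal worm (YMW), or to DMEM as the medium control (MC). The labels give 4% (w/v) of each source, which does not match the mass per volume in the study's methods, and which mouse a sample came from is not given. Total RNA was hybridised to 15 Affymetrix mouse gene arrays, 3 per group. All groups share the strain, sex, age and the culture of epithelial cells.

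Enterocytes are the absorptive cells of the intestinal villus. They arise from stem cells at the crypt base, pass through a dividing progenitor stage, and as they mature they stop dividing and build a brush border of microvilli carrying digestive enzymes and transporters. Alpi and Akp3 encode intestinal alkaline phosphatases of the brush border, which remove phosphate from lipopolysaccharide and nucleotides, and Vil1 encodes villin, which bundles actin in microvilli. S100g encodes calbindin-D9k, which carries calcium through the cell, Krt20 a keratin of differentiated intestinal cells, and Ada adenosine deaminase, which turns adenosine into inosine. Prap1 encodes a proline-rich secreted protein, Clca4b a member of the calcium-activated chloride channel regulator family, Tm4sf4 a 4-transmembrane protein of the L6 family, and Serpinb1a an inhibitor of neutrophil serine proteases.

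The stretches before the transcription starts of Alpi and Akp3 are shown because these genes are neighbours on chromosome 1 and carried the largest weights on the axis, and those of Krt20 and Tm4sf4 because they hold a match to the same motif as Alpi. Each is the 250 bases before the start, 5′ to 3′ on the gene's own strand, from RefSeq on GRCm38.p6. Alpi lies on the minus strand (chr1:87101607-87101856), Akp3 on the plus strand (chr1:87124704-87124953), Krt20 on the minus strand (chr11:99438154-99438403) and Tm4sf4 on the plus strand (chr3:57425160-57425409). Capitals mark matches to the CDX2 motif TTTATNG, the GATA motif AGATAA, the HNF4 motif CAAAGTCC and the TATA box TATAAA on either strand.
Alpi: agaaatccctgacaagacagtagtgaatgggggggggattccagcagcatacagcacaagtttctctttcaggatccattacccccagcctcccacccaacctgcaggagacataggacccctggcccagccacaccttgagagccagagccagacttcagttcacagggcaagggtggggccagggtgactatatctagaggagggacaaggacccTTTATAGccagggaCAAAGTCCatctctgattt
Akp3: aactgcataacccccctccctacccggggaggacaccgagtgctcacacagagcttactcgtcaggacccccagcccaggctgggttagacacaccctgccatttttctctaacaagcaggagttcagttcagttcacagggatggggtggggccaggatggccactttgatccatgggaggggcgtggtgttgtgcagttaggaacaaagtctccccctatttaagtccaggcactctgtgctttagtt
Krt20: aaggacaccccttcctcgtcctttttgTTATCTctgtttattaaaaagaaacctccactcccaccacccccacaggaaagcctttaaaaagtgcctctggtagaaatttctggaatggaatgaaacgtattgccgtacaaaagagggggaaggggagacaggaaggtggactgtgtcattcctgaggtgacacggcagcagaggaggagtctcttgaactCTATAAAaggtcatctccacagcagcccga
Tm4sf4: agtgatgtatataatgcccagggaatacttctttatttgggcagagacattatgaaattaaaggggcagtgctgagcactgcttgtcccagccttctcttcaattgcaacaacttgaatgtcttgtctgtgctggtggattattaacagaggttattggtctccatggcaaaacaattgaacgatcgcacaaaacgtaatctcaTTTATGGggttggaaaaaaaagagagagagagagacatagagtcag
The CDX2 and TATA box matches overlap in Alpi and in Krt20. A CDX2 match was found in 3 of the 9 members whose sequence was matched (Alpi, Krt20 and Tm4sf4), against 9.81% of 32851 mouse promoters searched over the same length. GATA matches were found in 2 (Krt20 and Prap1), against 9.99% of promoters. An HNF4 match was found in Alpi alone of the 9, against 1.2%, and TATA box matches in 3, against 12.4%. The short KLF motif CACCC, not capitalised above, was found in 7 of the 9, against 52.0%, and the longer palindromic HNF1 motif in 0, against 0.00913%. The longest run shared by the Alpi and Akp3 stretches was ttcagttcacaggg, 14 bases that begin at position -94 in Alpi and -122 in Akp3, where -1 is the last base before the start. The matches describe these letters alone, and no binding was measured.

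The arrays fell into a pattern that has to be known before any comparison with the MC is read. MC replicates 2 and 3 stood apart from the other 13 arrays, and MC replicate 1 lay among the treated arrays. The first component, computed on linear intensities, held 65.6% of the variance, and it held 32.7% once MC replicates 2 and 3 were left out. Treated arrays scored from -8960 to 6064 on it, against -4750, 20339 and 26233 for MC replicates 1, 2 and 3. On it, Akp3, Alpi and S100g had the largest weights of all genes toward MC replicates 2 and 3, Krt20, Prap1, Ada, Tm4sf4, Clca4b and Serpinb1a ranked 7 to 12, and Vil1 ranked 47. Cyp2c66, Muc3 and Apoa4, which are not among the 10, held ranks 4, 5 and 6, and Lgals3 held rank 13. The ranks depend on the scale, since on log2 values the component held 25.9% of the variance and the 10 genes ranked from 14 (Ada) and 17 (Krt20) to 245 (Alpi) and 421 (Vil1). Without the 10 genes the component still held 62.8% of the variance. All 10 genes were far above the background of 3.91 (log2), set by the 95th percentile of 1155 smell-receptor genes, and their lowest value on any array was 7.88. The 8 general epithelial genes of a list that includes Epcam, Cdh1 and Cdx2 averaged 11.30 to 11.40 on treated arrays and 11.24 to 11.48 on MC arrays. Of 11 measured markers of immune, stromal and vascular cells, Ptprc, Cd79a, Pdgfra, Pecam1 and Cdh5 had means below background, and 6 had means above it, from 3.98 (Cd3e) and 4.02 (Acta2) through the collagens Col3a1 (4.91), Col1a2 (4.98) and Col1a1 (5.22) to 6.12 (Cd68). The mean of these 6 was 4.76 to 5.02 on treated arrays and 4.84 to 4.96 on MC arrays. With all 3 MC arrays, 0 of the 11 passed the study's threshold, given below, in any comparison with the MC. Of all genes, 0.499% to 2.14% passed it as lower and 1.13% to 1.82% as higher. Cd68 differed by 0.52 with YMW, and by 0.66 without MC replicate 1. In that setting 1 of the 11 was higher past the threshold with YMW, and the share of all genes that were higher there was not counted.

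The brush border phosphatases were highest on MC replicates 2 and 3, and their treated range reached close to these arrays. Akp3 had log2 intensities of 11.29, 11.57 and 12.58 in CAS, 11.17, 11.58 and 12.24 in SBM, 12.86, 12.49 and 11.50 in SDPP and 12.53, 11.57 and 11.35 in YMW monolayers, against 11.64, 13.08 and 13.08 in MC monolayers, in the order of replicates 1 to 3. Alpi had 11.40, 11.65 and 12.34 in CAS, 11.35, 11.69 and 12.13 in SBM, 12.48, 12.28 and 11.53 in SDPP and 12.21, 11.59 and 11.49 in YMW monolayers, against 11.58, 12.76 and 12.83 in MC monolayers. For both genes every group held at least 1 array at or below 11.64, and only MC replicates 2 and 3 exceeded SDPP replicate 1. The 2 genes are close paralogs, and signal shared between their probe sets was not tested.

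Vil1, the structural gene of the microvillus, kept the narrowest range of the 10 genes. Its log2 intensity was 10.58, 10.70 and 10.98 in CAS, 10.60, 10.63 and 10.83 in SBM, 11.14, 10.97 and 10.70 in SDPP and 10.87, 10.60 and 10.49 in YMW monolayers, against 10.62, 11.49 and 11.65 in MC monolayers. The treated arrays thus spanned 1.58-fold and the MC arrays 2.05-fold, and MC replicate 1 lay within the treated range.

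Krt20 had the widest range among the treated arrays. It had log2 intensities of 8.87, 9.20 and 10.83 in CAS, 8.11, 8.87 and 10.33 in SBM, 11.28, 10.85 and 8.52 in SDPP and 10.18, 8.66 and 8.70 in YMW monolayers, against 8.71, 11.76 and 11.93 in MC monolayers. Arrays of 1 group differed 3.88-fold in CAS, 4.66-fold in SBM, 6.76-fold in SDPP, 2.87-fold in YMW and 9.36-fold in MC monolayers. Each protein source had at least 1 array below 9 and 1 above 10, so the groups overlapped over most of their range.

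S100g and Ada set MC replicates 2 and 3 furthest from the treated arrays. S100g had log2 intensities of 9.53, 9.78 and 10.43 in CAS, 9.11, 9.75 and 10.37 in SBM, 11.23, 10.77 and 9.60 in SDPP and 10.03, 9.39 and 9.41 in YMW monolayers, against 9.21, 12.13 and 12.26 in MC monolayers. Ada had 8.37, 8.31 and 9.54 in CAS, 7.88, 8.53 and 9.24 in SBM, 9.73, 9.65 and 8.07 in SDPP and 9.16, 8.36 and 8.52 in YMW monolayers, against 8.19, 11.69 and 11.95 in MC monolayers. The lower of MC replicates 2 and 3 exceeded the highest treated array 1.87-fold for S100g and 3.89-fold for Ada, while the lowest MC array was lower than 11 of 12 treated arrays for S100g and 10 of 12 for Ada. For the other 8 genes this gap lay between 1.16-fold (Akp3) and 1.67-fold (Tm4sf4).

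The remaining genes repeated the pattern. Prap1 had log2 intensities of 10.69, 10.81 and 11.55 in CAS, 10.28, 10.68 and 11.48 in SBM, 11.73, 11.51 and 10.61 in SDPP and 11.23, 10.76 and 10.76 in YMW monolayers, against 10.47, 12.14 and 12.31 in MC monolayers. Clca4b had 9.50, 9.84 and 11.05 in CAS, 8.82, 9.60 and 10.72 in SBM, 11.47, 11.09 and 9.49 in SDPP and 10.63, 9.04 and 9.29 in YMW monolayers, against 9.15, 11.68 and 11.96 in MC monolayers. For Clca4b, SDPP replicate 1 came within 1.16-fold of the lower of MC replicates 2 and 3. Tm4sf4 had 8.92, 9.26 and 10.44 in CAS, 8.58, 9.21 and 10.01 in SBM, 11.02, 10.55 and 8.99 in SDPP and 10.36, 9.24 and 9.21 in YMW monolayers, against 9.22, 11.76 and 11.93 in MC monolayers. Serpinb1a had 10.45, 10.59 and 11.21 in CAS, 10.55, 10.68 and 11.03 in SBM, 11.50, 11.28 and 10.47 in SDPP and 11.01, 10.56 and 10.64 in YMW monolayers, against 10.62, 12.02 and 12.13 in MC monolayers. MC replicate 1 lay within the treated range for all 10 genes, and MC replicates 2 and 3 lay above every treated array for all 10. The genes were chosen on an axis that sets MC replicates 2 and 3 apart, so nothing is read from these counts. The share of all genes with this pattern was not counted.

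**Figure D1:**
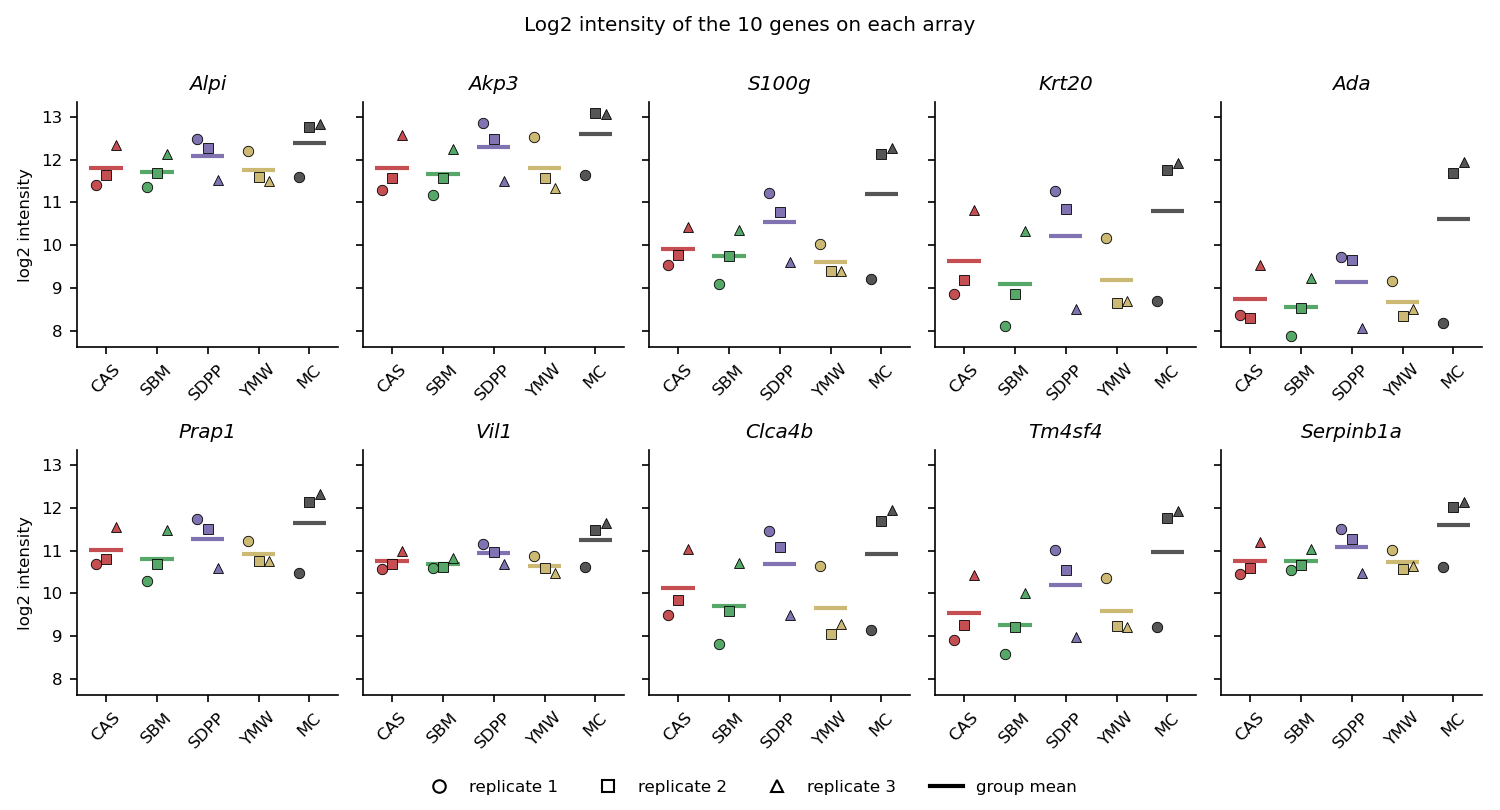
Each panel plots the log2 intensity of 1 gene (vertical axis) on the 15 arrays by group (horizontal axis), with 1 symbol per replicate number and a line at the group mean. In every panel MC replicates 2 and 3 are the highest arrays, MC replicate 1 lies among the treated arrays, and the same array of each protein source is the highest of its group.

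The genes also agreed on which array of a protein source was high. CAS replicate 3, SBM replicate 3, SDPP replicate 1 and YMW replicate 1 were the highest array of their group for 10 of 10 genes each, and SDPP replicate 1 was the highest of all 12 treated arrays for 10 of 10. SBM replicate 1 and SDPP replicate 3 were the lowest of their group for 10 genes, CAS replicate 1 for 9, and YMW replicates 2 and 3 for 5 each. These high arrays do not all share a replicate number. They also scored highest of their group on the component that chose the genes, so nothing is read from this agreement. The share of all genes that were highest in the same arrays was not counted. The mean of the 10 genes was 9.96, 10.17 and 11.10 in CAS, 9.65, 10.12 and 10.84 in SBM, 11.44, 11.14 and 9.95 in SDPP and 10.82, 9.98 and 9.98 in YMW monolayers, against 9.94, 12.05 and 12.20 in MC monolayers. Ordered by group mean, SBM (10.20 ± 0.60, SD, n = 3), YMW (10.26 ± 0.49), CAS (10.41 ± 0.60), SDPP (10.85 ± 0.79) and MC (11.40 ± 1.26) differed between neighbours by less than the pooled spread of 0.80 within groups. In RNA from a whole monolayer, fewer cells of a type and less RNA per cell cannot be told apart.

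Against the mean of the 3 MC arrays, all 10 genes were lower with every protein source, and the choice of control arrays decided the sign. The median log2 difference over the 10 genes was -0.82, -1.08, -0.43 and -1.06 with CAS, SBM, SDPP and YMW, while the median over all genes lay within 0.02 of 0 in each. Without MC replicate 1 it was -1.51, -1.76, -1.06 and -1.75 with CAS, SBM, SDPP and YMW. With MC replicate 1 as the only control it was 0.43, 0.24, 0.88 and 0.39, and 10 of 10 genes were above 0 in all 4 comparisons. The 4 comparisons share the MC arrays, so their likeness is not independent.

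**Figure D2:**
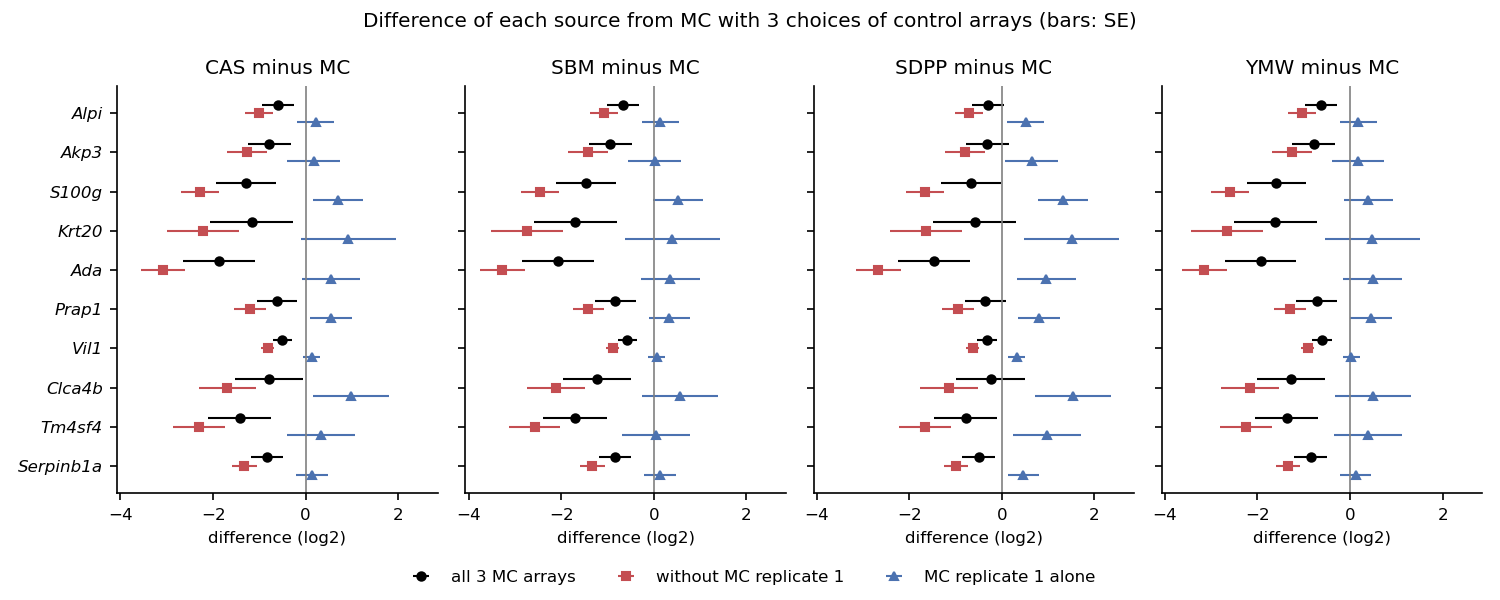
Each panel plots the log2 difference of 1 protein source minus MC (horizontal axis) for the 10 genes (vertical axis), with all 3 MC arrays, without MC replicate 1, and with MC replicate 1 alone; bars are the SE of the fit. Points with all 3 MC arrays and without MC replicate 1 lie below 0, and those with MC replicate 1 alone lie above 0.

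Ada had the largest difference of the 10 genes with every source, and Vil1 the smallest with CAS, SBM and YMW. Ada differed from the MC by -1.87, -2.06, -1.46 and -1.93 with CAS, SBM, SDPP and YMW (log2, SE 0.77 each), and by 0.55, 0.36, 0.96 and 0.49 when set against MC replicate 1 alone. Krt20 differed by -1.17, -1.70, -0.58 and -1.62 with CAS, SBM, SDPP and YMW (SE 0.90). Vil1 differed by -0.50, -0.57, -0.32 and -0.60 in the same order (SE 0.21). The study's threshold, an unadjusted p under 0.05 with a fold change of at least 1.5, was passed in limma by Ada and Serpinb1a with CAS, by S100g, Ada, Tm4sf4 and Serpinb1a with SBM, by 0 of 10 with SDPP, and by S100g, Ada, Vil1 and Serpinb1a with YMW. All of these were lower. Over all genes, 2.04%, 2.14%, 0.499% and 2.13% passed it as lower with CAS, SBM, SDPP and YMW. Because the genes were chosen on an axis that sets MC replicates 2 and 3 apart, nothing is read from the counts. Without MC replicate 1 the counts were 10, 10, 7 and 10 of 10, beside 4.48%, 4.9%, 3.44% and 4.6% of all genes, and with MC replicate 1 as the only control S100g alone passed, as higher with SDPP, beside 0.834%, 0.611%, 0.744% and 0.494% of all genes in either direction.

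The values of the 10 genes overlapped between the protein sources. The median log2 difference of a source from the mean of the other 3 was -0.05, -0.29, 0.51 and -0.13 for CAS, SBM, SDPP and YMW. SDPP was above the other sources for 10 of 10 genes, by 0.24 (Vil1) to 0.91 (Krt20), but SDPP replicate 3 was the lowest of its group for every gene. In the fit to all 15 arrays, the 95% interval of the difference included 0 for all 10 genes in each of the 4 comparisons. The intervals ran from -0.86 to 2.48 over the genes for SDPP, from -1.44 to 1.70 for CAS, from -2.14 to 1.05 for SBM and from -2.04 to 1.22 for YMW. The interval reached more than 1 log2 unit to either side of the difference for S100g, Krt20, Ada, Clca4b and Tm4sf4. For Vil1, the interval for SDPP was -0.13 to 0.61. The threshold was passed by 0 of the 10 in the 4 comparisons, beside 0.159%, 0.0266%, 0.0159% and 0.0691% of all genes for CAS, SBM, SDPP and YMW. These intervals use a variance that the MC arrays enlarge. In a fit to the 12 arrays of the sources alone, chosen after seeing the data, the intervals included 0 for 10, 10, 8 and 10 genes with CAS, SBM, SDPP and YMW. The exceptions were S100g (0.11 to 1.44) and Vil1 (0.01 to 0.47), both higher with SDPP, and S100g passed the threshold, beside 0.106% of all genes in either direction. The genes were chosen for a large spread over these arrays, which widens the intervals, so nothing is read from them about how alike the sources are.

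**Figure D3:**
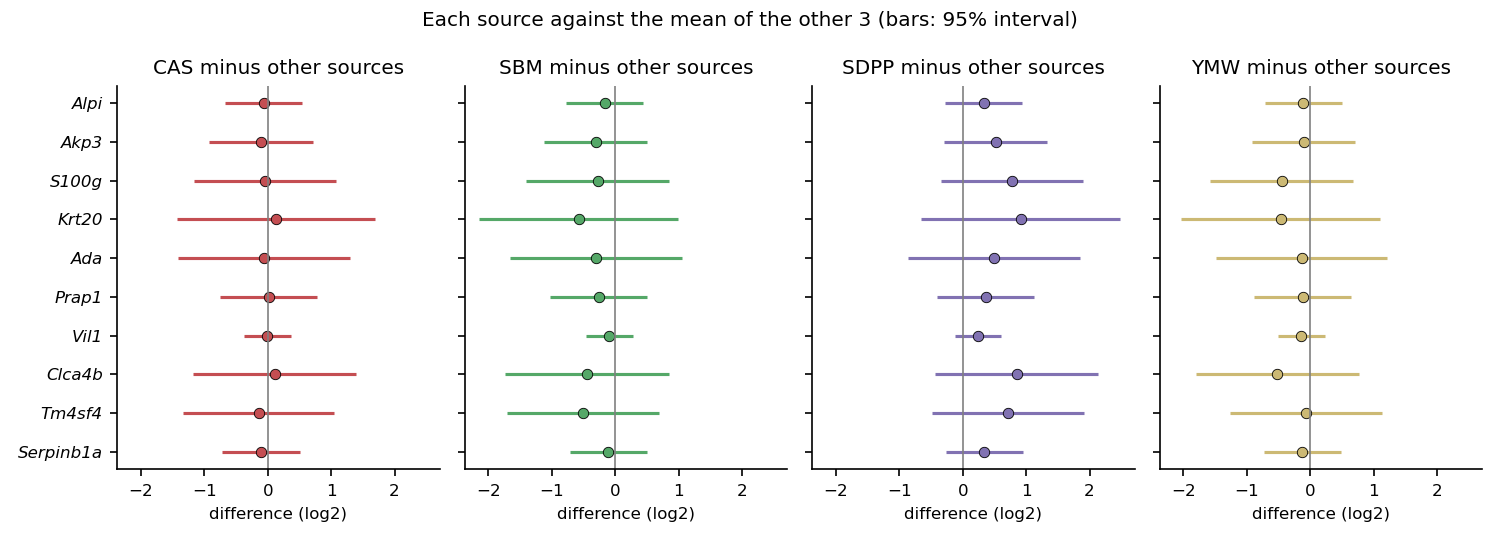
Each panel plots, for the 10 genes (vertical axis), the log2 difference of 1 protein source minus the mean of the other 3 (horizontal axis), with bars for the 95% interval of the fit to all 15 arrays. Every bar crosses 0, and the points of SDPP lie to the right of 0 for all 10 genes.

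With all 15 arrays, most of the variance of these genes lay within groups. Differences between the 5 group means held a median of 32.0% of the variance of the 10 genes, from 24.4% (Prap1) to 44.7% (Vil1), and 32.9% of that of all genes. The share of the 10 genes was 61.2% without MC replicate 1 and 20.8% without MC replicate 3, the extremes when each array was left out in turn. Among the 4 protein sources alone the share was 18.2%, from 13.2% (Ada) to 34.2% (S100g), against 26.1% for all genes. What set the 10 genes apart was the size of the spread. The SD within groups had a median of 0.81 over the 10 genes, from 0.30 (Vil1) to 1.31 (Krt20), against 0.14 over all genes. Among the 3 MC arrays the median SD was 1.27, with 2.10 for Ada, 1.82 for Krt20 and 1.72 for S100g, against 0.14 over all genes. Within the protein sources the median SD of the 10 genes was 0.62, so the single variance per gene that the fit assumes for all groups understates the spread of the MC and overstates that of the sources. Since the axis that chose the genes weights large differences in intensity, this size is a description of the choice.

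**Figure D4:**
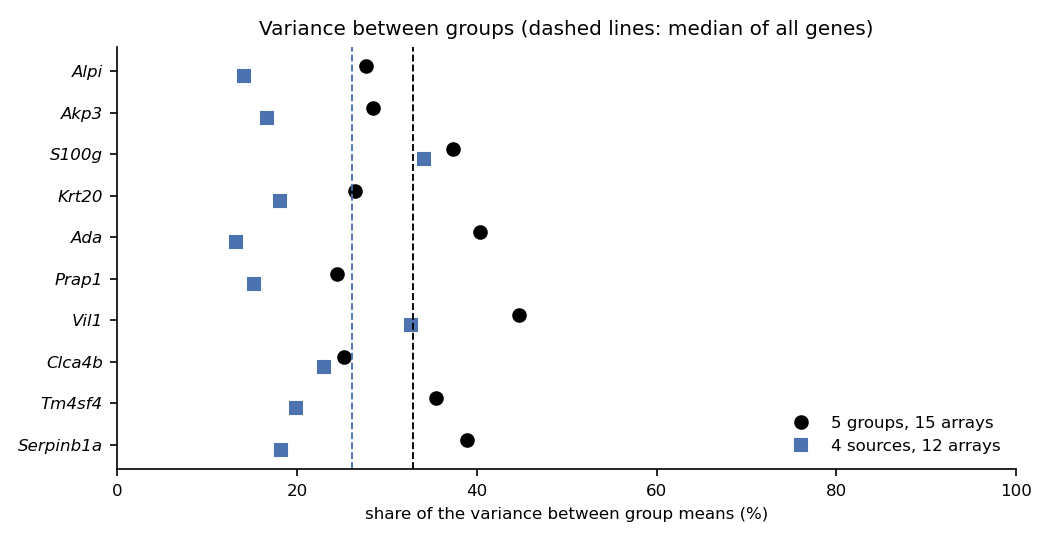
The horizontal axis gives the share of the variance of log2 intensity, in percent, that lay between group means for each of the 10 genes (vertical axis), over the 5 groups and over the 4 protein sources alone; dashed lines mark the medians of all genes. The shares over 5 groups run from 24.4% to 44.7%, on both sides of the median of all genes.

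Other genes of the absorptive cell were taken from lists. Of 62 genes listed for brush border structure, brush border hydrolases and nutrient uptake with lipid handling, 57 were measured, and 19, 27, 2 and 23 of them were lower past the study's threshold with CAS, SBM, SDPP and YMW, with 0 higher, beside 2.04%, 2.14%, 0.499% and 2.13% of all genes. At a Benjamini-Hochberg adjusted p under 0.05 in limma 0 passed, beside 0.654%, 0.00531%, 0.0% and 0.00531% of all genes, and 28, 37, 7 and 30 passed an unadjusted p under 0.05, beside 16.5%, 18.2%, 12.0% and 19.0%. Their median log2 difference was -0.80, -0.81, -0.44 and -0.86. Without MC replicate 1, 41, 43, 33 and 41 were lower, beside 4.48%, 4.9%, 3.44% and 4.6% of all genes, and with MC replicate 1 as the only control 1 gene passed, as higher with SDPP, beside 0.744%. The mean of the 52 above background was highest in the same array as the 10 genes in 5 of 5 groups. Some of these genes also weigh heavily on the axis that chose the 10, with Muc3, Apoa1, Sis and Cdhr5 at ranks 5, 16, 27 and 38. The counts rest on the same MC arrays and are not separate evidence.

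Brush border structure genes included Cdhr2 and Cdhr5, cadherins that link the tips of microvilli, and Myo1a, which ties the membrane to the actin core. Cdhr2 differed from the MC by -1.06, -1.15, -0.70 and -0.99 with CAS, SBM, SDPP and YMW, and Myo1a by -0.98, -0.87, -0.59 and -0.95. Both passed the threshold with CAS, SBM and YMW and not with SDPP. Muc3, a membrane mucin, differed by -1.07, -1.29, -0.33 and -1.04 and did not pass. Cdhr2 had 8.97 to 10.19 on treated arrays, against 9.21, 10.77 and 11.06 on MC arrays.

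Among the hydrolases, Mep1b, a subunit of the metalloprotease meprin, differed from the MC by -1.53, -1.42, -1.02 and -1.60 with CAS, SBM, SDPP and YMW and passed with all but SDPP. Sis, which splits sucrose and isomaltose, differed by -1.29, -1.39, -0.77 and -1.39 and passed with SBM and YMW. Enpp3, an ectoenzyme that cleaves nucleotides, ran from 4.76 to 9.41 on treated arrays, against 5.18, 9.57 and 10.07 on MC arrays. Its differences of -2.14, -2.24, -0.63 and -2.55 did not pass in any comparison. In the uptake list, Slc2a2, a transporter of glucose and fructose, differed by -1.97, -2.05, -0.88 and -1.94 and passed with SBM alone. Rbp2, which binds retinol in the enterocyte, differed by -1.48, -1.54, -0.79 and -1.64 and passed with CAS, SBM and YMW.

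Crypt base stem cells and dividing cells were followed through lists of their own. Of 15 measured genes of crypt base stem cells, 5, 3, 3 and 3 were higher past the threshold with CAS, SBM, SDPP and YMW and 0 were lower. Of 13 genes of cycling cells, 7, 7, 6 and 6 were higher and 0 lower. Higher calls made up 1.82%, 1.37%, 1.13% and 1.74% of all genes. At an adjusted p under 0.05 in limma 0 genes of either list passed, beside 0.654%, 0.00531%, 0.0% and 0.00531% of all genes. At an unadjusted p under 0.05 the counts were 9, 7, 5 and 5 stem cell genes and 9, 8, 7 and 9 cycling genes. The shares of all genes at that cutoff were 16.5%, 18.2%, 12.0% and 19.0%. With MC replicate 1 as the only control the median of the stem cell list was -0.06, -0.10, -0.12 and -0.14. That of the cycling list was then -0.11, -0.08, -0.23 and -0.09. Olfm4, a marker of crypt base stem cells, ran from 11.23 to 11.89 on treated arrays, against 11.68, 10.06 and 8.53 on MC arrays, and was higher by 1.45 (SDPP) to 1.54 (SBM) with SE 0.51. Lgr5, the receptor that marks these stem cells, was higher by 0.89, 0.83, 0.71 and 0.94, and Mki67, a nuclear protein of dividing cells, by 0.78, 0.77, 0.69 and 0.72. Against MC replicate 1 alone, Olfm4 differed by -0.09, -0.05, -0.14 and -0.06 and Mki67 by -0.18, -0.19, -0.27 and -0.25.

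The order of the arrays within groups was compared too. In 5 of 5 groups the mean of the stem cell list and that of the cycling list ordered the 3 arrays in reverse of the 10 genes. The stem cell list averaged 8.79, 8.74 and 8.52 in CAS, 8.76, 8.68 and 8.49 in SBM, 8.46, 8.52 and 8.85 in SDPP and 8.50, 8.66 and 8.63 in YMW monolayers, against 8.77, 8.09 and 7.68 in MC monolayers. The cycling list stayed between 8.77 and 9.05 on all treated arrays, against 9.04, 8.35 and 7.92 on MC arrays. These differences among treated arrays were small beside those of the 10 genes, which spanned 9.65 to 11.44. Their part in the comparisons above was not tested.

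**Figure D5:**
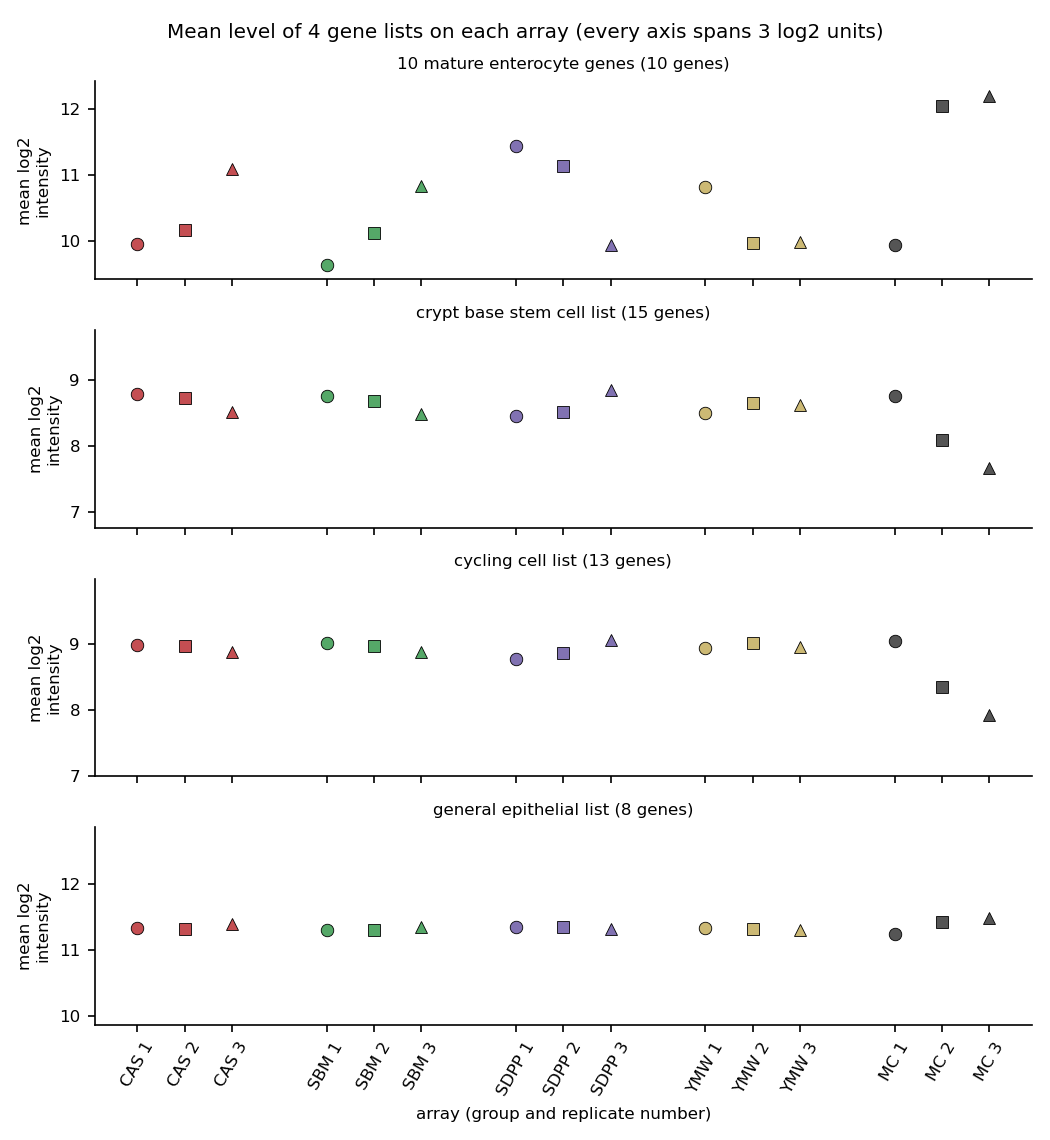
The vertical axes give the mean log2 intensity of the 10 mature enterocyte genes, a crypt base stem cell list, a cycling cell list and a general epithelial list on each array (horizontal axis), and every axis spans 3 log2 units. The first panel spans 9.65 to 12.20 with MC replicates 2 and 3 on top, the stem cell and cycling panels have these 2 arrays at the bottom, and the epithelial panel stays between 11.24 and 11.48.

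Relatives of the 10 genes within their families did not all follow them. Alppl2, another alkaline phosphatase, was lower past the threshold with CAS, SBM and YMW, with measured log2 differences of -0.72, -0.80 and -0.93. It had a median of 3.79 on treated arrays, against 3.78, 4.86 and 5.42 on MC arrays, so the treated median and MC replicate 1 lay below the background of 3.91 and the size of its difference is uncertain. Alpl, the tissue-nonspecific phosphatase, differed by -0.05, 0.02, 0.01 and -0.06 with CAS, SBM, SDPP and YMW. Of 5 keratins of simple epithelia besides Krt20, 0 passed the threshold in any comparison. Of all genes, 0.499% to 2.14% passed it as lower and 1.13% to 1.82% as higher. Krt19 differed by -0.18, -0.14, -0.10 and -0.17. Among relatives of villin, Gsn and Capg, which sever or cap actin filaments, were lower with all 4 sources, with log2 differences of -0.81, -0.78, -0.61 and -0.62 for Gsn and -0.85, -0.84, -0.66 and -0.77 for Capg. Vill, a villin-like gene, was higher with all 4, by 0.72 (SBM), 0.82 (SDPP), 1.04 (YMW) and 1.1 (CAS), with 6.42 to 7.14 on treated arrays against 6.84, 5.34 and 5.27 on MC arrays. MC replicate 1 lay within the treated range for Gsn, Capg and Vill.

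In the family of Clca4b, Clca4a differed by -1.13, -1.58, -0.60 and -1.59 with CAS, SBM, SDPP and YMW and did not pass. Clca1, which goblet cells secrete, was lower with all 4, with differences of -0.81, -0.68, -0.59 and -0.76. Clca3b and Clca3a1 went the other way and did not pass. Clca3b differed by 0.41, 0.49, 0.44 and 0.46 and Clca3a1 by 0.18, 0.21, 0.33 and 0.02. Tm4sf20, a relative of Tm4sf4, was lower with all 4, with differences of -1.09, -0.92, -0.78 and -0.92. For the purine pathway of Ada, 13 genes were measured, and 3, 2, 1 and 2 were lower past the threshold, with 0 higher. Beside them, 2.04%, 2.14%, 0.499% and 2.13% of all genes were lower. The median difference of the list was -0.06, 0.01, 0.01 and 0.02 with CAS, SBM, SDPP and YMW. Its largest differences were those of Slc28a2 and Gda. Slc28a2, a sodium-coupled transporter of purine nucleosides, was lower with all 4, with differences of -1.68, -1.75, -1.43 and -1.82. It had 5.86 to 6.91 on treated arrays against 5.88, 8.90 and 8.95 on MC arrays. Gda, which deaminates guanine, differed by -1.83, -1.95, -0.93 and -1.86 and passed with SBM alone. Of the 9 measured calcium genes listed beside S100g, 1 was lower with CAS, SBM and YMW, beside 2.04%, 2.14% and 2.13% of all genes. This was Atp2b1, a calcium pump of the plasma membrane, with differences of -0.72, -0.73 and -0.74. Vdr, the vitamin D receptor, differed by -0.54, -0.06, -0.12 and -0.21 and did not pass.

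The serpins related to Serpinb1a held an exception, a difference that did not rest on MC replicates 2 and 3. Serpinb9b had 9.20 to 10.01 on treated arrays, against 10.14, 10.17 and 10.28 on MC arrays, so the groups did not overlap. It was lower with CAS (difference -0.80, SE 0.12, limma adjusted p = 0.0107), and the difference was -0.75 against MC replicate 1 alone. Serpinb6b had 7.05 to 7.88 on treated arrays, against 8.12, 8.07 and 8.45 on MC arrays, and was lower with CAS (difference -0.82, SE 0.16, limma adjusted p = 0.0435), with -0.73 against MC replicate 1 alone. With SBM, SDPP and YMW the differences of Serpinb9b were -0.65, -0.58 and -0.35, with adjusted p of 0.105, 0.314 and 0.157 in limma. Those of Serpinb6b were -0.65, -0.65 and -0.41, with adjusted p of 0.159, 0.314 and 0.195 in limma. An adjusted p under 0.05 was reached by 0.654% of all genes with CAS. Both serpins were named for the size of their difference from MC. The share of all genes whose treated and MC arrays did not overlap was not counted.

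Beyond these families, the genes whose centred profile over the 15 arrays lay nearest to the mean of the 10 were Smim24, H2-Q2, Ceacam18, Pla2g12b and Slc11a2, out of 12295 compared. Their root mean square distance was 0.10, 0.12, 0.14, 0.15 and 0.15 on the log2 scale, and the 10 genes themselves lay 0.22 to 0.48 from their mean. Smim24, a small membrane protein, ran from 8.91 to 10.50 on treated arrays, against 9.12, 10.93 and 11.24 on MC arrays. Slc11a2, the transporter that takes up ferrous iron in the duodenum, ran from 7.73 to 9.48 on treated arrays, against 7.95, 9.91 and 10.11 on MC arrays. Both genes were highest on MC replicates 2 and 3, which follows from their choice by profile. Nearest to the mirror image were Pla2g4a, Ptpn14, Mal, Trp53i11 and Ccdc3, at distances of 0.32 to 0.39. Pla2g4a, a phospholipase that releases arachidonic acid, ran from 8.13 to 9.01 on treated arrays, against 8.91, 6.82 and 6.34 on MC arrays.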

How the data were processed

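The deposited values are linear intensities per probe set, which the authors made by RMA (version not given in the sources used here), which subtracts background, equalizes array distributions by quantiles and summarises probe-level signals. They ran from 3.02 to 10739.1, with array medians of 21.7 to 24.1. Log2 was taken first. Probe sets were named through the platform's annotation; of 35556, 21218 had 1 symbol, 1881 several and 12457 none. For genes with several probe sets, the brightest on average was used, which gave 18820 genes, and 12879 genes were above background. The number of arrays limits the precision.

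limma 3.58.1 in R 4.3.3 estimated 5 group means from all 15 arrays, with an intensity trend in the prior variance and Benjamini-Hochberg adjustment over all genes. On simulated data for CAS against MC with 18820 genes, the fit called 31 of 50 genes set to 1.5-fold changes and 43 of 50 set to 2-fold. A call there was an adjusted p under 0.05, not the study's threshold. The changed genes were drawn at random, and each gene had the same SD in all groups. The 10 genes had a larger spread than most genes, above all on MC arrays, so these counts give no recovery rate for them. The labels call the arrays biological replicates, but which mouse each came from is not given, so p-values measure the spread between these samples. Promoters were matched for 9 of the 10 genes.

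The genes and lists were chosen with earlier results of these data known. The text names all 10 genes, the 5 genes nearest to their mean profile and the 5 nearest to its mirror image, and genes from up to 4 per list, those above background with the largest mean difference from MC. Cell type markers given as checks, Cyp2c66, Apoa4, Lgals3 and Gcg stand outside this rule and were named after their values were seen. Predicted genes, smell receptors and small RNAs are not named.

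Alternatives were 1 prior variance for all genes, a replicate block, the arrays of 2 groups alone, 2 background filters, a second quantile normalization, median centring, the mean of probe sets, linear intensities for the shares of variance, MC replicate 1 as the only control and the omission of each array. Other settings for the first component, and a fit to the sources' arrays alone, were chosen after seeing the data.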

Additional observations from a re-analysis of the deposited data

How the results depend on the processing

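With MC replicate 1 as the only control the median difference of the 10 genes changed sign, to 0.43, 0.24, 0.88 and 0.39 for CAS, SBM, SDPP and YMW, and 0, 0, 1 and 0 of them passed the threshold, as did 0, 0, 1 and 0 of the absorptive enterocyte genes. Under the other 4 alternatives that keep all arrays, these medians kept their sign and moved by less than the spread between replicates. With the arrays of 2 groups alone, 0 of the 10 genes passed for CAS, SBM and YMW, and 8, 9, 0 and 14 absorptive genes for CAS, SBM, SDPP and YMW. Whether the replicate number shared between groups pairs the samples by mouse is not known. In 30 pairs of same-numbered arrays the correlation of their deviations had a median of -0.16, from -0.69 to 0.54. Of 15 arrays, 2 correlated best with their own number. The deviations include the spread along the first component, which can hide a pairing, so these values do not settle it. The replicate block left 1 absorptive gene past the threshold with SDPP, as did 1 prior variance and both background filters (1 each), and moved no other count here by more than 1.5 times. On linear intensities the share of variance between groups was 43.6%. The first component held 25.9% of the variance on log2 values.

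When each array was left out in turn, the median difference from MC ran from -1.51 to -0.56 (CAS), -1.76 to -0.70 (SBM), -1.06 to -0.10 (SDPP) and -1.75 to -0.67 (YMW). The lowest value came without MC replicate 1 and the highest without MC replicate 3 in all 4. The 10 genes past the threshold numbered 0 to 10 for CAS, SBM and YMW and 0 to 7 for SDPP, and the absorptive genes 3 to 41 (CAS), 2 to 43 (SBM), 0 to 33 (SDPP) and 4 to 41 (YMW), highest without MC replicate 1. Against the other sources the median ran from -0.34 to 0.15 (CAS), -0.60 to -0.002 (SBM), 0.22 to 0.97 (SDPP) and -0.41 to -0.04 (YMW). For CAS its sign turned without CAS replicate 1 (0.15), CAS replicate 2 (0.02), SBM replicate 3 (0.04), SDPP replicate 1 (0.04) or YMW replicate 1 (0.02). The share of variance between groups ran from 20.8% without MC replicate 3 to 61.2% without MC replicate 1. The cause was not tested.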

Other observations

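Lists of secretory cells were counted against the same threshold, which 2.04%, 2.14%, 0.499% and 2.13% of all genes passed as lower and 1.82%, 1.37%, 1.13% and 1.74% as higher with CAS, SBM, SDPP and YMW. Of 8 goblet cell genes, Clca1 was lower with all 4 sources and Zg16, a lectin of the mucus granule, with CAS, SBM and YMW. Zg16 had 8.97 to 9.98 on treated arrays, against 9.07, 10.69 and 11.06 on MC arrays, and its differences were -0.99, -1.05, -0.73 and -1.03 with CAS, SBM, SDPP and YMW. Other genes of the list went the other way and did not pass. Spdef differed by 0.39, 0.35, 0.46 and 0.51 and Agr2 by 0.27, 0.39, 0.28 and 0.30. The means of the 8 goblet cell genes lay between 9.80 and 9.98 on treated arrays, against 9.89 to 10.18 on MC arrays. Of 7 measured Paneth cell genes, 1 was higher with CAS, the metalloprotease Mmp7 (difference 0.66). Lyz1, the Paneth cell lysozyme, differed by 0.32, 0.35, 0.29 and 0.37 and did not pass.

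Among 11 enteroendocrine genes, Tac1, which encodes substance P, was higher with all 4 sources, by 1.15, 1.04, 1.38 and 1.26 with CAS, SBM, SDPP and YMW. It had 6.08 to 6.94 on treated arrays, against 6.50, 4.70 and 4.83 on MC arrays. The other gene higher with SDPP was Gcg, which encodes proglucagon and is named after its values were seen. Sct, which encodes secretin, was lower with YMW (difference -0.65). Of 7 tuft cell genes, Trpm5, a cation channel of taste-like cells, was lower with SBM and YMW, with differences of -0.59 and -0.68. Pou2f3, Avil and Lrmp of this list were above the MC with all 4 sources and did not pass. Pou2f3 differed by 0.38, 0.28, 0.44 and 0.28, and the median of the list by 0.13, 0.07, 0.16 and 0.03. MC replicate 1 again lay within the treated range for Zg16, Tac1 and Trpm5.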
